A study of Mus musculus with 6 samples.

Results

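The genes described here are 31 genes of T cell effector function, exhaustion and costimulation: granule proteins, cytokines and chemokines, inhibitory receptors with a ligand, costimulatory receptors, and the transcription factors that govern them. They were chosen by symbol, each represented by its brightest probe set with a single gene symbol, and 30 of the 31 were measured among 18193 genes. Tigit, a receptor of T and NK cells, had no such probe set and was not analysed here. The RNA came from mouse T-cell acute lymphoblastic leukaemia of genotype Notch1[delta]E mycGFP on C57BL/6, grown in transplanted mice. CD25+ splenocytes were taken 4 weeks after transplantation from animals aged 12 weeks and sorted by GFP into MycGFP positive cells (3 arrays) and MycGFP negative cells (3 arrays). Both groups carry activated Notch1 and the c-Myc-GFP allele, and the sort by GFP separates them. The recipients were congenic mice, whose own spleen cells could enter a sort, and the gate also used mCherry. Per the series' design text, the material was 3 separate leukaemias, and the arrays are numbered 1 to 3 in each group, but no label says which leukaemia a number stands for or whether cells of several mice were pooled.

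An activated T cell kills through granzymes, proteases that enter the target through perforin pores, and signals through cytokines such as interferon gamma and chemokines of the CCL family. Costimulatory receptors of the TNF receptor family and the CD28 family raise the response to antigen. Inhibitory receptors such as PD-1, which binds the ligand PD-L1, and CTLA-4 restrain it, and cells under lasting stimulation carry many of them at the same time, a state called exhaustion. T-ALL cells resemble immature thymocytes, a stage at which most effector genes are silent.

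The arrays bore the marks of the labelled cells. Of the T cell markers, 7 of 7 measured lay above the array median on all 6 arrays, beside 44.4% of all genes. Their log2 differences ran from -1.16 (Cd247, limma adjusted p = 0.0625) to 0.11 (Cd2), and none was called in either fit. The co-receptor genes Cd4, Cd8b1 and Cd8a had -2.86, -1.59 and -0.66. Of these, Cd4 was called in both fits and Cd8b1 only with the array number as a block (limma adjusted p = 0.0454). Il2ra, which encodes the CD25 of the sort, had intensities of 5396, 7876 and 9462 on positive and 6777, 8019 and 10857 on negative arrays. Myc, the gene behind the GFP sort, had a log2 difference of 1.37 (SE 0.24, limma adjusted p = 0.0329). The median intensity over named genes was 55.0 to 57.8 on positive and 50.8 to 51.4 on negative arrays, and this array median served as the mark of background, since no detection calls were at hand. Other cells left traces. The sum over 9 myeloid markers was 178 to 2698 on positive and 253 to 10582 on negative arrays, with its highest values on the arrays numbered 2 of both groups (2698 and 10582). The sum over 6 B cell markers was 292 to 646 on positive and 285 to 814 on negative arrays, and over 6 NK cell markers it was 150 to 264 on positive and 123 to 302 on negative arrays. No marker on these 3 lists was called without the array number as a block, and with it Cd79b and S100a9 were lower and Blk higher on positive arrays. Ncr1, a defining NK cell receptor, lay at 6.0 to 7.9 on all 6 arrays. Both plasma cell markers lay above the array median on all 6 arrays. Sdc1 had 6955 to 7806 on positive and 8535 to 9800 on negative arrays, and Jchain 126 to 521 and 303 to 777. Of the plasmacytoid dendritic cell markers, Bst2 lay above it on all 6 (351 to 693 and 294 to 760) and Siglech on none. The 4 erythroid markers measured lay above it on none. No marker on these further lists was called in either fit, and which cells made Sdc1, Jchain and Bst2 was not tested.

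Of the 30 measured genes, 11 lay above the array median on all 6 arrays, 12 on some and 7 on none, where 44.4% of all genes lay above it on all 6. With the highest of 17 genes of other organs on each array as the mark of background instead, the count on all 6 arrays fell to 5 (Cd27, Cd274, Ctla4, Gzma and Tox). That mark was uneven, at 91.1, 240 and 144 on positive arrays 1, 2 and 3 and 62.5 to 74.2 on negative arrays. The value of 240 was that of Apoa2. Each gene lost (Prf1, Nkg7, Lag3, Cd160, Tnfrsf18 and Icos) lay below it on positive array 2. The 11 above the median were Gzma, Prf1, Nkg7, Ctla4, Cd274, Lag3, Cd160, Tnfrsf18, Cd27, Icos and Tox. The 7 at background on every array were Ctla2a, Ifng, Tnf, Il2, Havcr2, Eomes and Prdm1. Among these are the cytokines interferon gamma, TNF and interleukin 2, the inhibitory receptor TIM-3 (Havcr2), and EOMES and BLIMP-1 (Prdm1), transcription factors of effector T cells.

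**Figure D1:**
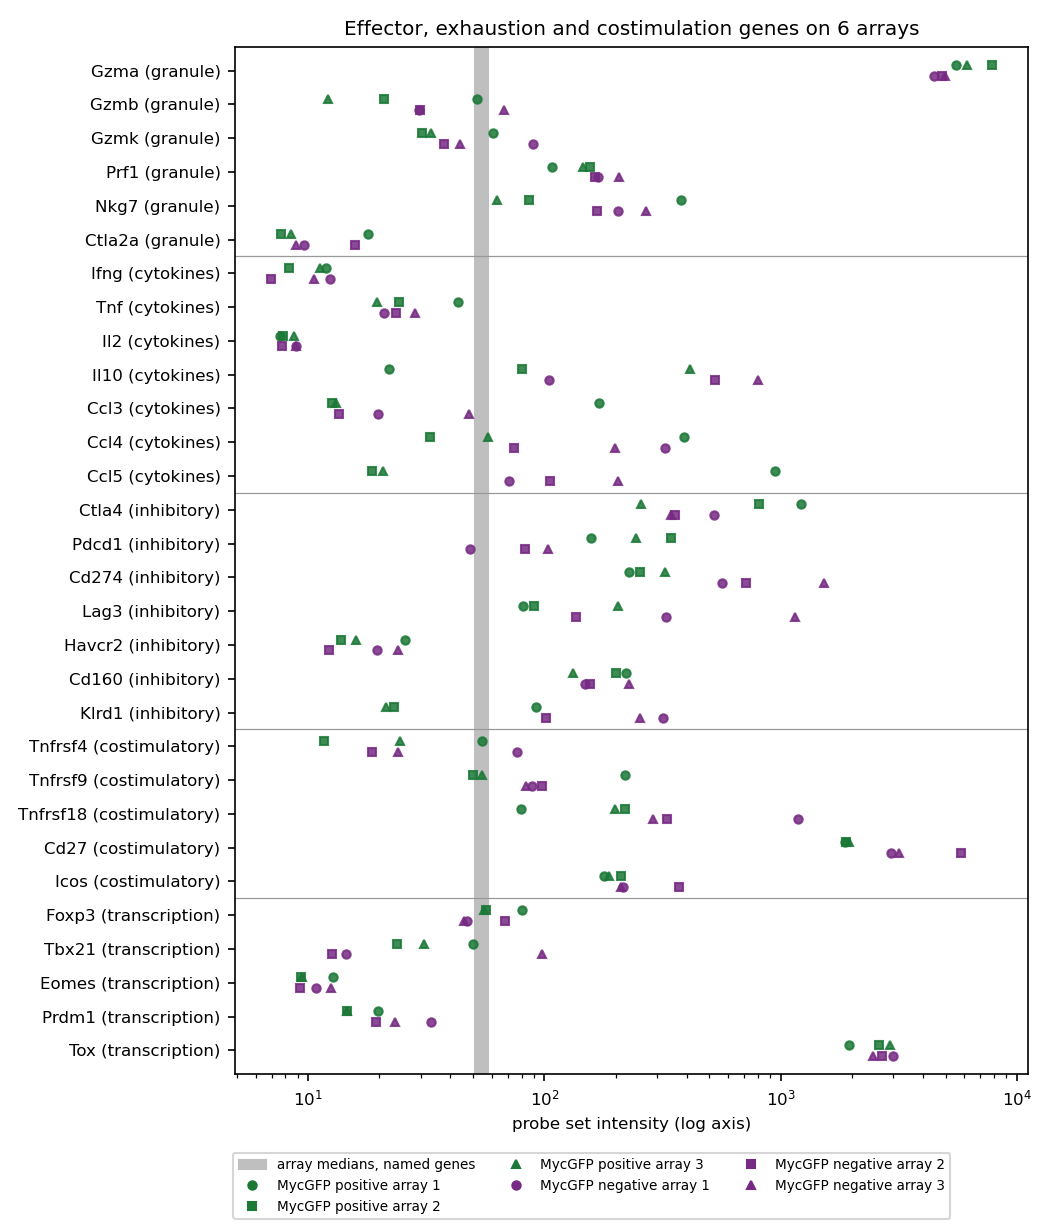
Probe set intensity (log axis) of the 30 measured genes, ordered by role; green points are the 3 MycGFP positive arrays and purple points below them the 3 negative arrays, with a symbol for each array number, and the grey band spans the array medians over named genes. Gzma, Cd27 and Tox lie far to the right of the band in both groups, while Ctla2a, Ifng, Tnf, Il2, Havcr2, Eomes and Prdm1 lie left of it on every array.

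No member passed at an adjusted p under 0.05 when positive and negative arrays were compared with limma (two-sided, Benjamini-Hochberg over all genes), against 6.13% of all genes (4.62% higher, 1.51% lower). These are 840 genes higher and 275 lower, and centring arrays on their gene medians gave 502 higher and 381 lower, again with no member among them. At an unadjusted p under 0.05 there were 2 members higher and 5 lower, which is 23.3% of the measured members beside 22.1% of all genes (14.7% higher, 7.35% lower). In 8 members the positive and negative arrays did not overlap, 2 higher (Gzma, Pdcd1) and 6 lower (Prf1, Cd274, Klrd1, Tnfrsf18, Cd27, Icos), or 26.7% of the members beside 28.1% of all genes (17% higher, 11.2% lower). Both shares, taken over the directions together, are near those of all genes. By direction, the members at an unadjusted p under 0.05 were 6.67% higher and 16.7% lower, and those without overlap 6.67% higher and 20% lower. With arrays centred on their gene medians, the unadjusted threshold gave 1 higher and 6 lower members, beside 10.8% and 14.1% of all genes. The median log2 difference of the members was -0.26, and that of all genes 0.01. With the array number as a block, 1 member was higher and 2 lower, or 10% beside 7.7% of all genes (5.75% higher, 1.95% lower). Within the array numbers, all 3 differences were negative in 10 members (21.3% of all genes) and all 3 positive in 2, Gzma and Pdcd1 (25.9% of all genes).

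**Figure D2:**
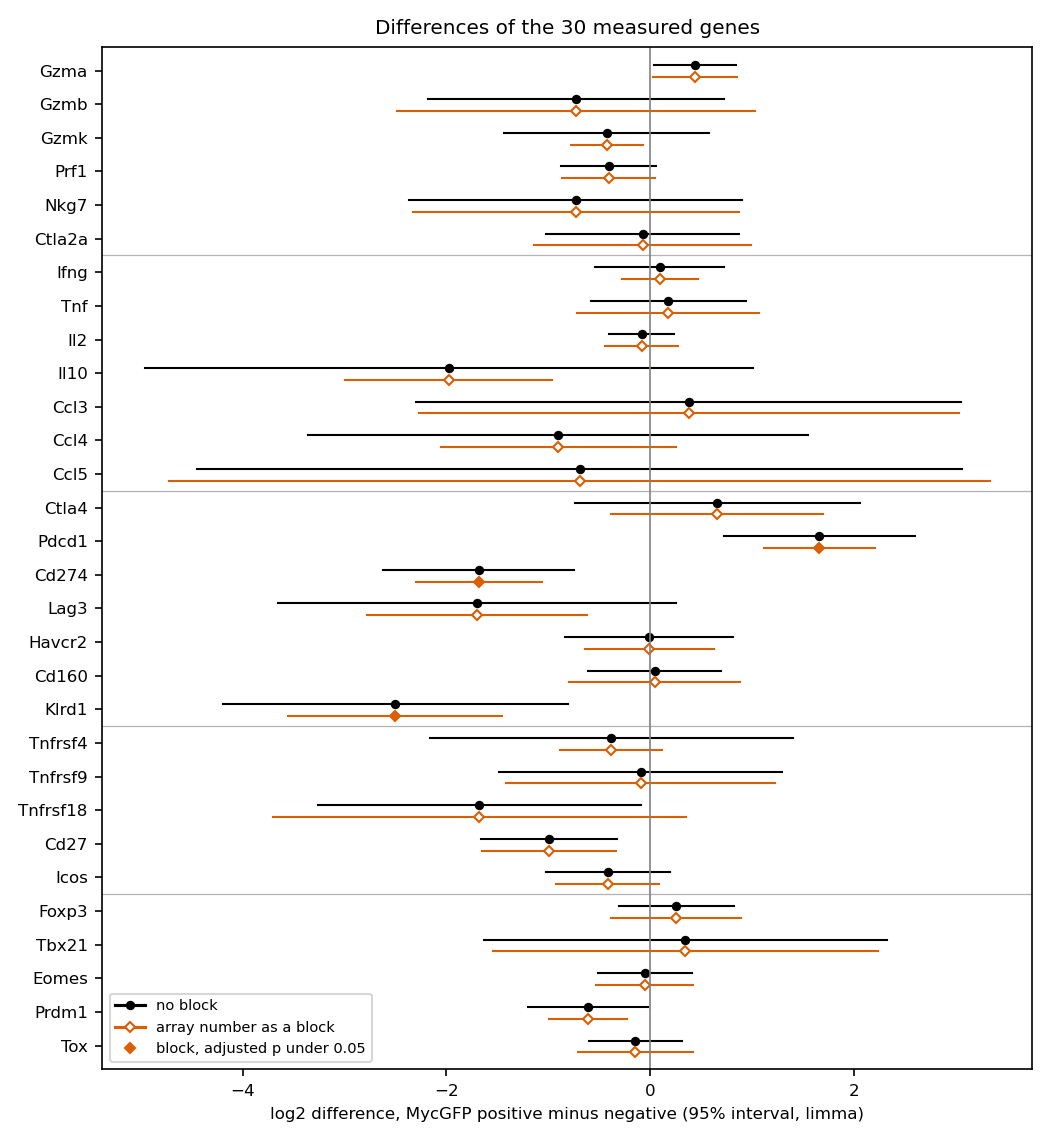
Log2 difference, MycGFP positive minus negative, with 95% intervals from limma for the 30 measured genes; black circles are the fit without a block, orange diamonds the fit with the array number as a block, and filled diamonds mark adjusted p under 0.05 in the latter fit. Pdcd1 lies right of zero, Cd274 and Klrd1 left of it, and the intervals of Ccl3 and Ccl5 span several log2 units on both sides.

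The 3 members that passed with the block were all listed in the inhibitory group, and they differed in opposite directions. Besides receptors, that group holds the ligand gene Cd274 and Klrd1, the gene of a partner chain. Pdcd1, which encodes PD-1, rose 3.17-fold in MycGFP positive cells, and Cd274, which encodes its ligand PD-L1, fell 3.20-fold. Klrd1, which encodes CD94, the partner chain of the NKG2 receptors, fell 5.66-fold. In bulk RNA such a difference can be fewer cells with the transcript or less transcript per cell, and these cannot be told apart.

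The RefSeq promoter windows of Pdcd1 and Cd274 are shown because this receptor and its ligand differed in opposite directions by nearly the same factor. Each window runs from 250 bases before to 50 bases after the gene's start (build GRCm38.p6), and capitals mark the GC box GGGCGG, a site of SP family factors, which was searched after the windows had been read. The Pdcd1 window is chr1:94052504-94052803 on the minus strand and the Cd274 window chr19:29367188-29367487 on the plus strand.
Pdcd1: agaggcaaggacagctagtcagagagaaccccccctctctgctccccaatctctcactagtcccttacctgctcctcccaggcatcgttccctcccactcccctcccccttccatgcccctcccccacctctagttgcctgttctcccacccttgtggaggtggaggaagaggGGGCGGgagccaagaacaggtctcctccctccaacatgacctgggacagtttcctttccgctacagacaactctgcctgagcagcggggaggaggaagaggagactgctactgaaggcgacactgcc
Cd274: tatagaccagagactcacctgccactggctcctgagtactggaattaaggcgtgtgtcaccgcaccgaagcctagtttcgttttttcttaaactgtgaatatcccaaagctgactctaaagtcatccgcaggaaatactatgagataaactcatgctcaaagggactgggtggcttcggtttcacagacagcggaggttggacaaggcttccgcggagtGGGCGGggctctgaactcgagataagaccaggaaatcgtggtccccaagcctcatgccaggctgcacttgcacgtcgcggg
Both windows held 1 GC box, which was in 35.7% of 32851 windows of this length, with both strands searched for each motif. Neither held CACGTG, the E-box bound by MYC with MAX (7.15% of all windows), TGGGAA, the core of the site of RBPJ, the DNA-binding partner of NOTCH (25.6%), or 2 copies of GAAA separated by any 2 bases, an element of interferon regulatory factors (3.44%). Windows were found for 24 of the 31 genes, 28 windows in all, of which 1 held the E-box (Tnfrsf4), 6 the RBPJ core and 2 the interferon element (Gzma and Eomes). These are letter matches in the window, not sites shown to be bound.

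Pdcd1 had intensities of 157, 343 and 243 on positive arrays 1, 2 and 3, against 48.2, 82.8 and 103 on negative arrays 1, 2 and 3. Every positive array lay above every negative one, and negative array 1 was under its array median of 51.4. The log2 difference was 1.66 (SE 0.39, 95% interval 0.72 to 2.61), with adjusted p = 0.0622 without and 0.0298 with the block. Cd274 had 229, 253 and 323 on positive arrays, against 565, 713 and 1530.2 on negative arrays, again without overlap. Its log2 difference was -1.68 (SE 0.39, 95% interval -2.62 to -0.74), with adjusted p = 0.0600 without and 0.0333 with the block. Cd274 is also made by myeloid and B cells. Negative array 3, with the highest Cd274, had the lowest myeloid sum of the negative arrays (253) and the highest B cell sum (814). The single markers did not move together. On that array Cd79b (645) made most of the B cell sum and Cd22 (60.9) was also highest, but Blk (21.8) was lowest. Of the myeloid markers, Csf1r (89.4) was highest there and S100a8 (26.2) lowest. The part of these cells in the difference was not tested.

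Klrd1 had 92.5, 23.0 and 21.2 on positive arrays, against 317, 101 and 255 on negative arrays, so the groups did not overlap but positive array 1 came close to negative array 2. Positive arrays 2 and 3 were at background, and the fold is against such a level. The log2 difference was -2.50 (SE 0.70, 95% interval -4.19 to -0.81), with adjusted p = 0.0960 without and 0.0410 with the block. Klrc1, an NKG2 chain that pairs with CD94, was under the array median on all arrays, at 6.3 to 13.7. When both arrays of any 1 number were left out, which leaves 2 arrays in each group, limma with the block called none of the 18193 genes, with smallest adjusted p over the members of 0.0653 without number 1, 0.118 without number 2 and 0.0754 without number 3. At an unadjusted p under 0.05 these fits had 1, 1 and 3 members higher, beside 14.1%, 12.2% and 14.7% of all genes, and 10, 7 and 6 of the 30 lower, beside 6.58%, 6.10% and 7.45% of all genes.

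**Figure D3:**
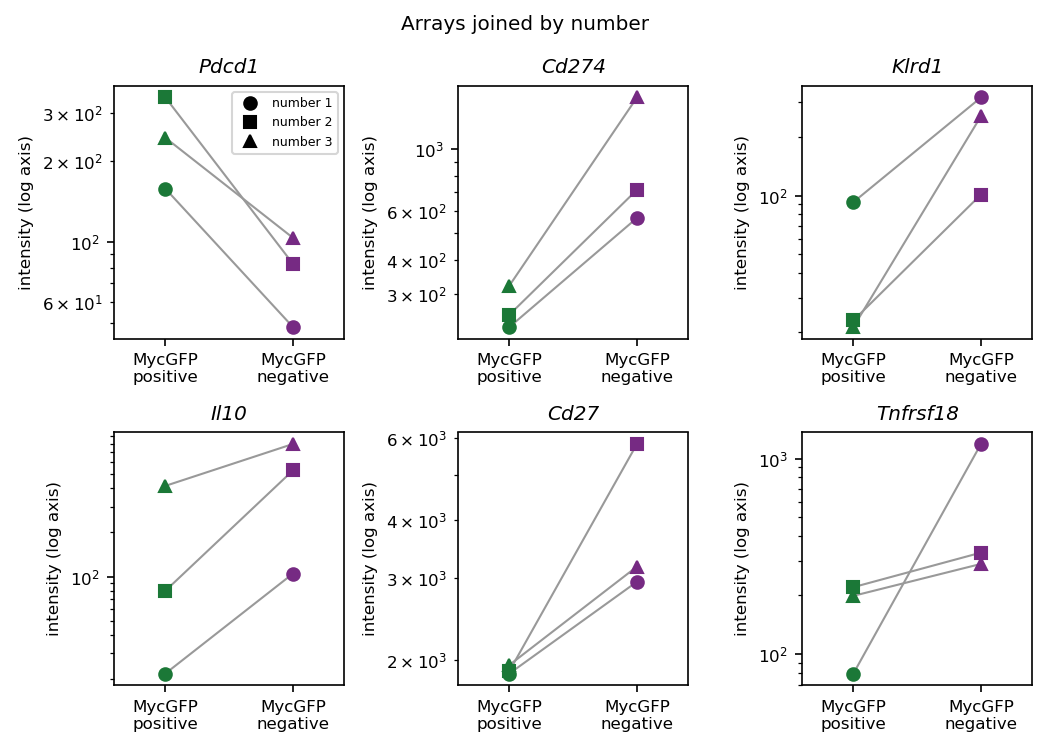
Intensity (log axis, own range per gene) of 6 genes on MycGFP positive arrays at the left and negative arrays at the right, with arrays of the same number joined by a line. Pdcd1 is higher on all 3 positive arrays, the other 5 genes are lower on the positive array of every number, and the 3 Il10 lines lie at different heights.

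The remaining inhibitory receptors did not pass in either fit. Lag3, a receptor that binds MHC class II, had 81.4, 90.6 and 205 on positive arrays, against 327, 136 and 1155 on negative arrays. The groups overlapped, since positive array 3 was above negative array 2. The log2 difference was -1.70 (SE 0.80, 95% interval -3.65 to 0.26, adjusted p = 0.290 without and 0.0842 with the block). Ctla4, which encodes a rival of CD28 for its ligands, had 1216, 812 and 255 on positive arrays, against 521, 356 and 345 on negative arrays. Positive arrays 1 and 2 were above all negative arrays and positive array 3 below them all, so the log2 difference of 0.66 had an interval of -0.74 to 2.06. Cd160, a receptor that binds HVEM, had 222, 202 and 132 on positive arrays and 149, 156 and 229 on negative arrays. Its log2 difference was 0.05 (95% interval -0.60 to 0.70), and it turned to -0.10 when arrays were centred on their gene medians. Of the 3 other Cd160 probe sets, one gave 1.03 and was not called (adjusted p = 0.119 over all named probe sets). Havcr2 lay at 13.8 to 25.8 on positive and 12.2 to 24.1 on negative arrays, at background throughout.

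All 5 costimulatory receptors had a negative difference, where the median over all genes was 0.01, and none was called in either fit. The signs of Tnfrsf4 and Tnfrsf9 each turned in 2 of the fits that left out a single array. Cd27, a TNF receptor family member that binds CD70, had 1870.1, 1893 and 1951 on positive arrays, against 2945, 5819 and 3174 on negative arrays. The positive arrays lay close together and below all negative ones, at 1905 ± 41.6 against 3979 ± 1597 (SD, n = 3 each). The log2 difference was -0.99 (SE 0.27, 95% interval -1.66 to -0.33, adjusted p = 0.0937 without and 0.0904 with the block). Tnfrsf18, which encodes GITR, a receptor of regulatory and activated T cells, had 79.8, 220.3 and 199 on positive arrays, against 1186, 331 and 289.5 on negative arrays. The groups did not overlap, but the arrays numbered 1 differed far more than the others, with log2 differences within the numbers of -3.89, -0.59 and -0.54. The log2 difference was -1.67 (SE 0.65, 95% interval -3.26 to -0.09, adjusted p = 0.203 without and 0.272 with the block).

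Icos, a CD28 family receptor of activated T cells, had 180, 210.19 and 188 on positive arrays, against 214, 373 and 210.21 on negative arrays. The groups were separate by a margin of a few hundredths of an intensity unit only, and the log2 difference of -0.41 had an interval of -1.02 to 0.19. Another Icos probe set gave -1.37 and the third -0.04, neither called (adjusted p = 0.159 and 0.976 over all named probe sets). Tnfrsf9 and Tnfrsf4, which encode 4-1BB and OX40, receptors induced by activation, lay above the array median on 4 arrays and on 1 array, at 49.7 to 220.1 and 11.7 to 54.5 on positive arrays and at 83.5 to 97.3 and 18.6 to 76.7 on negative arrays. For both of these the array numbered 1 was the highest of the positive group. The mean over all Tnfrsf9 probe sets had a difference of 0.0052, and the brightest one -0.09.

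Among the granule genes, Gzma was bright in both groups. Gzma, which encodes the tryptase granzyme A, had 5548, 7836 and 6166 on positive arrays, against 4447, 4816 and 4989 on negative arrays. All positive arrays were above all negative ones by a small step, with a log2 difference of 0.44 (SE 0.17, 95% interval 0.04 to 0.85, adjusted p = 0.190 without and 0.170 with the block). Prf1, which encodes perforin, ran the other way, with 108, 156 and 146 on positive arrays, against 168, 163 and 207 on negative arrays. The positive arrays were all lower, and the log2 difference of -0.40 had an interval of -0.87 to 0.06 (adjusted p = 0.291). Its other probe set gave -0.95 (adjusted p = 0.262 over all named probe sets). Nkg7, a granule membrane protein of killer cells, had 378, 85.6 and 62.8 on positive arrays, against 206, 167 and 269 on negative arrays. Positive array 1 was the highest and positive arrays 2 and 3 the lowest of all 6, so the groups overlapped (log2 difference -0.73, 95% interval -2.36 to 0.91).

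Gzmb and Gzmk, which encode granzymes B and K, were under the array median on most arrays. Gzmb lay at 12.1 to 51.7 on positive and 29.5 to 67.7 on negative arrays, and Gzmk at 30.2 to 60.6 on positive and 37.6 to 89.0 on negative arrays. Ctla2a, which encodes a cysteine protease inhibitor, lay at 7.6 to 17.8 on positive and 8.9 to 15.7 on negative arrays. A bright granzyme A signal thus stood beside granzyme B and K signals at or near background in both groups.

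The 3 chemokines had a within-group SD larger than their log2 difference between the groups. Ccl5, which encodes RANTES, had 943, 18.6 and 20.8 on positive arrays, against 70.8, 106 and 205 on negative arrays. Positive array 1 was more than all others together, and positive arrays 2 and 3 were at background. Its log2 difference was -0.69 with all arrays (95% interval -4.45 to 3.07) and -2.55 without positive array 1 (adjusted p = 0.0736), and it was positive, 0.28, at the other end of the range over left-out arrays. Ccl4, another chemokine of activated T, NK and myeloid cells, had 390, 32.8 and 57.4 on positive arrays, against 323, 74.4 and 199 on negative arrays. Both arrays numbered 1 were the highest of their groups. Ccl3, its neighbour and relative, had 171 on positive array 1 and 12.6 to 48.1 on the other 5 arrays.

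Positive array 1 was the highest array for 11 of the 30 members, or 36.7%, beside 25.3% of all genes. These were Ccl3, Ccl4, Ccl5, Ctla2a, Ctla4, Eomes, Foxp3, Havcr2, Nkg7, Tnf and Tnfrsf9. On that array the B cell gene Ms4a1, which encodes CD20, had 172, against 9.4 and 18.3 on the other positive arrays and 117, 14.5 and 20.6 on negative arrays 1, 2 and 3. Of the other B cell markers, Cd79a (63.0), Cd22 (30.2) and Pax5 (26.2) were also highest there among positive arrays. Cd22 and Pax5 were under that array's median of 55.0. Cd79b and Blk were not, with Cd79b at 182 against 213 on positive array 3 and Blk at 172 against 182 on positive array 2. The NK cell sum on positive array 1 was 264 beside 150 and 155 on the other positive arrays, with Fcer1g (150), which myeloid cells also express, as its largest part and Ncr1 at 7.2. The part of other cells in the chemokine values was not tested.

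**Figure D4:**
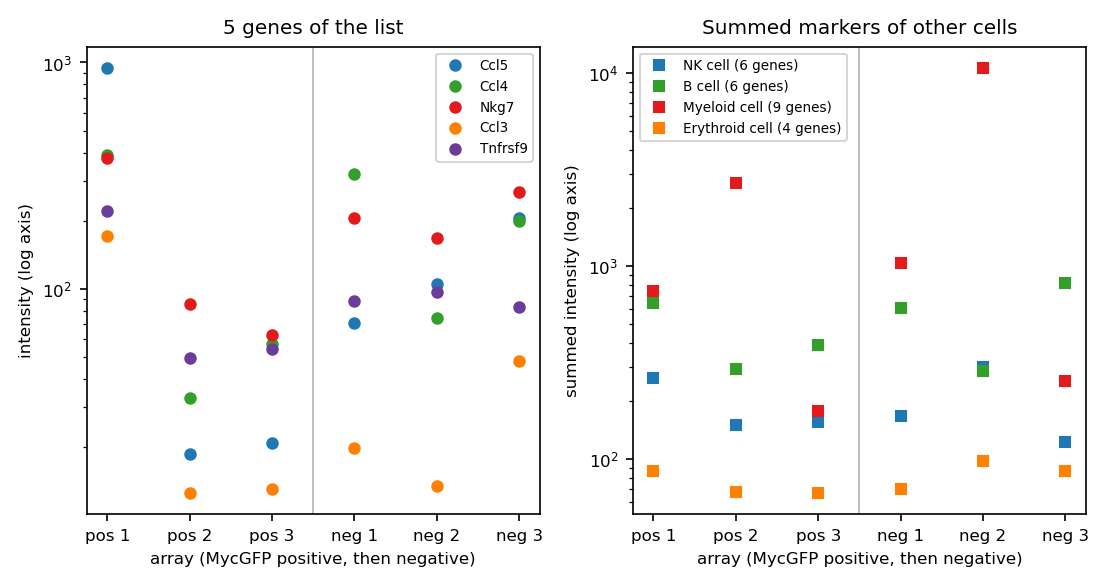
Intensity of 5 members (left) and summed intensity of markers of other cell types (right), both on log axes, on the 3 MycGFP positive and then the 3 negative arrays. Ccl5, Ccl3, Nkg7, Ccl4 and Tnfrsf9 are highest on positive array 1, where the NK and B cell sums are also above those of the other positive arrays, while the myeloid sum peaks on the arrays numbered 2.

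Il10, which encodes an anti-inflammatory cytokine, followed the array number. It had 21.9, 80.1 and 415 on positive arrays 1, 2 and 3, against 105, 528 and 799 on negative arrays 1, 2 and 3. In both groups number 1 was the lowest and number 3 the highest, and the positive array was below the negative array of the same number each time, with log2 differences of -2.26, -2.72 and -0.95. The log2 difference of -1.98 had an interval of -4.96 to 1.01 without the block and of -2.99 to -0.96 with it (adjusted p = 0.432 and 0.0560). Positive array 1 was under its array median. Myeloid and B cells also make Il10, and their part in these values was not tested. Ifng, Il2 and Tnf stayed under the array median on every array: Ifng at 8.3 to 11.9 on positive and 7.0 to 12.3 on negative arrays, Il2 at 7.6 to 8.7 and 7.8 to 8.9, and Tnf at 19.6 to 43.1 and 20.9 to 28.3. The Ifng difference of 0.10 turned to -0.054 when arrays were centred on their gene medians.

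Of the transcription factors, Tox alone was above the array median on all 6 arrays. Tox, which is needed for early T cell development and for the exhausted state, had 1955, 2599 and 2910.1 on positive arrays, against 2999, 2692 and 2469 on negative arrays. The groups overlapped in part, and the log2 difference of -0.14 had an interval of -0.60 to 0.31. The other Tox probe sets gave -0.45 and 0.23, neither called. Prdm1, which encodes BLIMP-1, lay under the array median throughout, at 14.5 to 19.7 on positive and 19.4 to 33.01 on negative arrays (log2 difference -0.61, adjusted p = 0.212 without and 0.0810 with the block). Foxp3, the regulatory T cell factor, lay around the median, at 55.5 to 80.1 on positive and 45.6 to 68.2 on negative arrays. Tbx21, which encodes T-bet, had 97.3 on negative array 3 and 12.6 to 49.8 on the other 5 arrays, and Eomes stayed at 9.3 to 12.8 on all of them.

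The spread between arrays of one group was wide in many of these genes. The within-group SD, on the log2 scale and pooled over both groups, had a median of 0.57 over the members and 0.24 over all genes. It was above the 90th percentile of all genes (0.68) in 13 of the 30, with Ccl5 (2.34), Il10 (1.86), Ccl3 (1.66) and Ccl4 (1.53) at the top. Of all genes above the array median on only some arrays, 41.7% exceeded that percentile. The share was 10.3% for genes above the median on all 6 arrays and 1.60% for genes never above it. The members' counts were 9 of 12, 4 of 11 and 0 of 7 in that order. The first class holds genes that cross the median between arrays, so it selects for spread and its share cannot show an effect of level. Gzma (0.19), Tox (0.23), Prf1 (0.24) and Cd27 (0.38) were among the steadier members.

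**Figure D5:**
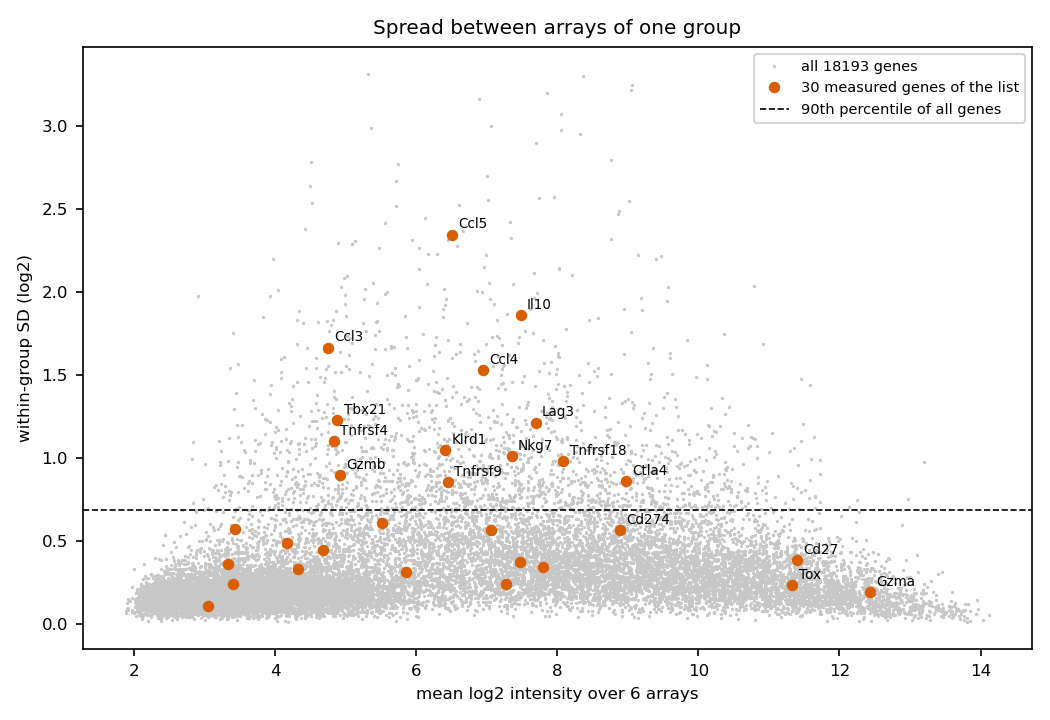
Within-group SD (log2) against mean log2 intensity over the 6 arrays; grey points are all 18193 genes, orange points the 30 measured members, and the dashed line the 90th percentile of all genes. Ccl5, Il10, Ccl3 and Ccl4 stand highest among the members, and Gzma, Tox and Cd27 lie below the line at the bright end.

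Several members are neighbours in the genome, by the gene order of the RefSeq table of GRCm38.p6, and neighbours did not share a sign throughout. Gzma and Gzmk, with 0 protein-coding genes between them, had log2 differences of 0.44 and -0.42. Ctla4, which lies between Cd28 and Icos, had 0.66, and Icos -0.41. Cd274 and Pdcd1lg2, the gene of the second PD-1 ligand, are also adjacent, at -1.68 and 0.03, with Pdcd1lg2 at background on every array. Tnfrsf18 and Tnfrsf4, adjacent, had -1.67 and -0.38. Lag3 is adjacent to Cd4, which encodes a co-receptor of T cells, at -1.70 and -2.86. Cd4 had 871, 406 and 723 on positive arrays, against 5119.7, 5966 and 3208 on negative arrays (adjusted p = 0.0170). Klrd1 and Klrk1, adjacent in the NK receptor cluster, had -2.50 and -0.48, with Klrk1 at background on every array.

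Among 48 measured partners of these genes (ligands, further receptors, granule proteins and factors), 18 (37.5%) lay above the array median on all 6 arrays and 21 on none. Of all 18193 genes, 8071 (44.4%) lay above it on all 6 and 8066 on none. In this list 2 fell and 0 rose at an adjusted p under 0.05 without a block, or 4.17% fell beside 1.51% of all genes, and the same 2 passed with it. At an unadjusted p under 0.05, 8 were lower (16.7% of the list, beside 7.35% of all genes) and 0 higher (beside 14.7%). Vsir, which encodes the inhibitory receptor VISTA, had 115, 101 and 92.0 on positive arrays, against 334, 331 and 538 on negative arrays. It fell 3.82-fold (log2 difference -1.93, SE 0.23, adjusted p = 0.0152, and 0.0300 with the block), and its second probe set gave -2.55. Fas, the death receptor through which killer T cells and activated T cells themselves are removed, had 274, 139 and 178 on positive arrays, against 1167, 1122 and 654.5 on negative arrays. It fell 5.03-fold (log2 difference -2.33, SE 0.34, adjusted p = 0.0221, and 0.0295 with the block). For both genes the groups lay far apart. Without positive array 2 neither was called (adjusted p = 0.0682 for Vsir and 0.0804 for Fas), nor without positive array 3 (0.0606 and 0.0780), and Fas was not called without negative array 2 (0.0775).

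Among the other partners, Cd28, the main costimulatory receptor of T cells, had 3860.1, 3856 and 4605 on positive arrays, against 5526, 5517 and 5820.2 on negative arrays. The groups were separate by a small step, with a log2 difference of -0.46 (95% interval -0.77 to -0.14, adjusted p = 0.102). Nr4a1, an early target of T cell receptor signalling, had 112, 100.2 and 138 on positive arrays, against 235, 169 and 216 on negative arrays (log2 difference -0.83, adjusted p = 0.0629 without and 0.0520 with the block). Pvr, a ligand of TIGIT, had 58.6, 106 and 140 on positive arrays, against 173, 931 and 362 on negative arrays (log2 difference -2.02, adjusted p = 0.134 without and 0.0581 with the block). It had 7 probe sets, and these values are those of the brightest, which ends in _s_at, a type that another setting left out. Cd28, Nr4a1 and Pvr were chosen after their values were seen, as partners whose groups did not overlap. In the list of partners, 1 was higher and 10 were lower without overlap, or 22.9% beside 28.1% of all genes (17% higher, 11.2% lower). The 1 higher was Tnfsf10, with 1146, 1228 and 1158 on positive arrays, against 986, 974 and 573 on negative arrays (log2 difference 0.52, adjusted p = 0.268). The ligands Cd86, Tnfsf4, Tnfsf9 and Cd70 were under the array median on every array. Cd80 was under it on all but negative array 1, where it had 57.5 against a median of 51.4.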

How the data were processed

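RNA of 6 sorted samples, 3 of MycGFP positive and 3 of MycGFP negative cells, was hybridised to Affymetrix mouse arrays after amplification from 5 ng, per the labels' protocols. The deposited values are intensities per probe set on a linear scale, made with RMA per the submitters' processing notes, with a version not given in the sources used here. Since RMA scales arrays to one another, a change of total RNA per cell is not visible. Amplification from so little RNA can add noise, and its size was not tested. The planned test was for log2 values, so deposited intensities were first put on that scale. Precision is limited by having 3 arrays in a group.

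Gene names came from the platform annotation, with symbols updated by Entrez identifier through the RefSeq table of GRCm38.p6 (34741 of 34945 probe sets with 1 symbol matched). Of 45101 probe sets, 64 controls were left out, and 932 with several symbols and 9160 with none named no gene. Where a gene had several, the brightest by mean log2 intensity stood for it, which left 18193 genes. The test between groups was limma's (version 3.58.1, under R 4.3.3), with lmFit, eBayes, 2-sided p-values adjusted by Benjamini-Hochberg across every gene, and 0.05 as threshold. It was tested on simulated data. Differences are MycGFP positive minus negative, folds are their antilog, and SEs and 95% intervals are limma's moderated ones. They come from the fit without the block unless the block is named.

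Array numbers were checked for pairing. Deviations from the group means gave r = 0.38, 0.21 and 0.39 between a positive and a negative array sharing a number, over genes, and r = -0.32 to -0.03 otherwise. Deviations within a group sum to zero, so the negative values follow in part. The numbers were therefore taken, from the data and not from a label, to be pairs, and blocked values are given where they change a call or bear on a member. Calls made only with the block thus rest on pairs read from the same intensities that were tested. Only the design text calls the samples separate leukaemias, so a p-value reflects the spread among these samples, which may be technical.

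Other settings tried were the array number as block, leaving out single arrays or pairs (the pairs chosen after seeing the data), averaging a gene's probe sets, arrays centred on their gene medians, no probe sets ending in _x_at or _s_at, a trended and robust variance and other marks of background. The members and lists were chosen with earlier results of these data known. All measured members are named. Values on every array are given for members above the array median on all 6 arrays or with separate groups, and for others, such as Il10 and the chemokines, after their values were seen. Partners that passed are named.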

Additional observations from a re-analysis of the deposited data

How the results depend on the processing

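With the replicate block, 1 member was higher (Pdcd1) and 2 were lower (Cd274 and Klrd1), where the fit without it called 0 in each direction, and both partner genes kept their calls. Leaving out each array in turn gave 0 members higher throughout and 0 to 1 lower, the 1 being Cd274 without negative array 1 (adjusted p = 0.0476) or negative array 3 (0.0456). Over all genes it gave 0 to 862 higher and 0 to 238 lower, where all 6 arrays gave 840 and 275. Without positive array 2 limma called none, with smallest adjusted p = 0.0591 and, at an unadjusted p under 0.05, 1 member higher and 4 lower of 30, beside 12.1% and 5.36% of all genes. Averaging probe sets (1017 and 393), leaving out _x_at and _s_at probe sets (859 and 291), a trended and robust variance (702 and 237) and the block (1047 and 354) stayed within 1.5 times of the full counts for all genes and, the block apart, called 0 members. Centring arrays on their gene medians gave 502 higher and 381 lower genes and moved the median difference of all genes from 0.01 to -0.14, with 0 members called. It turned the differences of Ifng (-0.054) and Cd160 (-0.10), and averaging probe sets turned that of Tnfrsf9 (0.0052). Without both arrays of 1 number, 0 members were called with or without the block. Over all genes, the fits without the block called 310 higher and 42 lower when number 1 was left out. They called 0 when number 2 or number 3 was left out, and the fits with the block called 0 each time. The count of members above background, 11 with the median over genes, was 15 with the median over all probe sets, 12 without _x_at and _s_at probe sets and 13 with averaged probe sets. It was 5 with the highest of 17 genes of other organs on each array as the mark (Cd27, Cd274, Ctla4, Gzma and Tox). That mark reached 240 on positive array 2, against 62.5 to 74.2 on negative arrays. Signs also turned when an array was left out for 12 members, and those ranges were -0.45 to 0.19 for Ctla2a, -0.14 to 0.27 for Ifng, -0.15 to 0.42 for Tnf, -0.86 to 1.02 for Ccl3, -2.55 to 0.28 for Ccl5, -0.29 to 0.21 for Havcr2, -0.10 to 0.28 for Cd160, -0.94 to 0.24 for Tnfrsf4, -0.79 to 0.29 for Tnfrsf9, -0.18 to 1.30 for Tbx21, -0.20 to 0.054 for Eomes and -0.27 to 0.020 for Tox. Genes near the array median carry little signal over background, so their differences are the least certain.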
